A study of Homo sapiens with 4 samples.

Results

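RNA crosslinked to the protein NKRF was compared between a pair of crosslinking treatments, 4-thiouridine with 365 nm light (PAR) and 254 nm light alone (UV). The members are the NKRF PAR and the NKRF UV library, 2 of the 4 libraries of the series, chosen by their labelled protein and treatment. The cells of every group were Flp-In T-Rex HEK293, derived from human embryonic kidney and carrying a construct switched on by tetracycline, which here encoded NKRF with a Flag-His tag. Induction lasted 24 h in each group. The PAR cells had 100 µM 4-thiouridine for 6 h before irradiation, and the UV cells had none. The remaining 2 libraries, from cells with the Flag-His tag alone after the same 2 treatments, are given beside the NKRF values as background. Each group had 1 library, so the differences below are without replicates and carry no test. The protein, the line and the purification were the same in both NKRF libraries, while the label, the wavelength, the depth and the way each file was made differed, and their effects cannot be told apart.

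NKRF is a G-patch protein, of a family whose members stimulate RNA helicases, and the series concerns its part in making ribosomes with the exonuclease XRN2 and the helicase DHX15. Ribosomal RNA (rRNA) is transcribed in the nucleolus as a long precursor, the 47S pre-rRNA, in which 18S, 5.8S and 28S are separated by the internal transcribed spacers ITS1 and ITS2 and flanked by the external transcribed spacers 5′ ETS and 3′ ETS. The spacers are cut out and degraded during maturation, so spacer RNA marks the precursor, while most 18S, 5.8S and 28S in a growing cell sits in long-lived ribosomes. Cells build 4-thiouridine into RNA made after its addition. Light at 365 nm crosslinks that base, and reverse transcriptase tends to read a crosslinked 4-thiouridine as C, whereas light at 254 nm can crosslink any RNA of whatever age and tends to leave deletions.

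Coverage is given as normalised hits, the number of reads over a nucleotide per 1000000 reads of the library. Depth differed. From the spacing of the low values, 1 read was worth 4.43 normalised hits in the NKRF PAR library and 0.920 in the NKRF UV library, which implies about 225810 and 1087548 reads. At least 22688 and 238662 of these lay on the 13780 nt of the pre-rRNA, where 90.2% and 96.6% of positions were covered. The tag-only libraries implied 112252 reads with PAR and 841751 with UV, with at least 1001 and 82816 on the pre-rRNA. Intervals below are 95% intervals for counting error only, since amplified reads lacking molecular identifiers may repeat the same molecule.

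The NKRF PAR file differed from the UV file in the changes it lists. Substitutions stood at 0 of its 11658 A, C and G positions, against 8214 such positions with a substitution in the NKRF UV file, and at 1419 of its 2122 T positions. In 4 isolated stretches of PAR coverage shorter than 50 nt and at least 5 reads high, the substitutions summed to a median of 1.0 per read at the highest point (0.986 to 1.03). Whether reads without a changed T were left out of the PAR coverage is not given in the sources used here. Every PAR value below may therefore count only reads with a changed T, and T content is given beside the results it could touch.

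The sequences on which the peaks of both libraries turned are shown first, because they carry the contrast between the treatments. Each is 51 nt of the 47S pre-rRNA in the deposited coordinates, 25 nt to either side of a summit of coverage, on the transcript strand with T for U. A capital T was substituted in at least 20% of at least 10 NKRF PAR reads. Summits 11009, 11303 and 438 had a summit of the other treatment within 25 nt, as did 3133, the highest PAR summit of the spacers.
28S, shared 11009: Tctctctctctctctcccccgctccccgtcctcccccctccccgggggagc
28S, shared 11303: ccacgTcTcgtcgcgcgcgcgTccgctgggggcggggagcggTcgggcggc
5′ ETS, shared 438: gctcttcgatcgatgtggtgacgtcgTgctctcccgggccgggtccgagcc
5′ ETS, shared 3133: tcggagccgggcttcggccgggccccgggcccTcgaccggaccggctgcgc
28S, PAR alone 10115: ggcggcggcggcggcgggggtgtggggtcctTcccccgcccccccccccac
28S, PAR alone 8488: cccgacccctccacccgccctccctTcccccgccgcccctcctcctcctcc
5′ ETS, PAR alone 2739: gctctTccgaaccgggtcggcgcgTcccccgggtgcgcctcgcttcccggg
5′ ETS, PAR alone 3233: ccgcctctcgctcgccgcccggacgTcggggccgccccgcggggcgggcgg
18S, UV alone 4811: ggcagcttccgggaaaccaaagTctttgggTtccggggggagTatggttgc
28S, UV alone 10079: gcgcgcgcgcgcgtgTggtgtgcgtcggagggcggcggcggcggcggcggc
18S, UV alone 5076: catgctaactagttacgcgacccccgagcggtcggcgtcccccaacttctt

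The first comparison asked which of the 9 deposited RNA classes each treatment recovered with NKRF. Ribosomal RNA took 14.2% of the hits of the NKRF PAR library and 35.7% of those of the NKRF UV library, a 2.51-fold lower share with PAR (2.48 to 2.53). Mitochondrial RNA, transcribed outside the nucleus, took 0.795% and 2.90%, 3.65-fold lower (3.48 to 3.83). Small nucleolar RNAs (snoRNA), which guide the cutting and modification of pre-rRNA, took 0.20% and 0.776%, 3.87-fold lower (3.52 to 4.26). Small nuclear RNAs (snRNA), the RNA parts of the spliceosome, took 1.04% and 2.08%, 2.0-fold lower (1.91 to 2.08). These 4 classes were lower with PAR, and the other 5 were higher.

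Transfer RNA (tRNA), which carries amino acids to the ribosome, took 9.95% with PAR and 5.36% with UV, 1.86-fold higher (1.83 to 1.88). MicroRNA (miRNA) took 19.7% and 12.3%, 1.60-fold higher (1.59 to 1.62). Protein-coding RNA was the largest class with PAR, at 41.3% against 32.6%, 1.27-fold higher (1.26 to 1.28). Long non-coding RNA (lncRNA) was 1.38-fold higher (1.36 to 1.41) and the class labelled others 1.76-fold higher (1.73 to 1.80). All shares of a library sum to the same total, and with rRNA left out of the denominator the log2 ratio of protein-coding RNA turned from 0.34 to -0.07 and that of lncRNA came to 0.05, while miRNA (0.27), tRNA (0.48) and the class others (0.40) stayed higher.

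Part of the same shift was seen without NKRF. Between the tag-only libraries rRNA went from 13.2% with UV to 1.84% with PAR, 7.19-fold lower (6.89 to 7.51), a larger fall than with NKRF, and mitochondrial RNA was 6.71-fold lower (6.24 to 7.22). The tag-only snRNA was 2.18-fold lower and the tag-only tRNA 1.59-fold higher. The snoRNA fell 2.02-fold with the tag (1.68 to 2.43), less than with NKRF. For miRNA and lncRNA the directions differed from those with NKRF, and their tag-only shares were 1.19-fold and 1.04-fold lower with PAR. The difference between NKRF and the tag was not tested, with 1 library in each group.

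**Figure D1:**
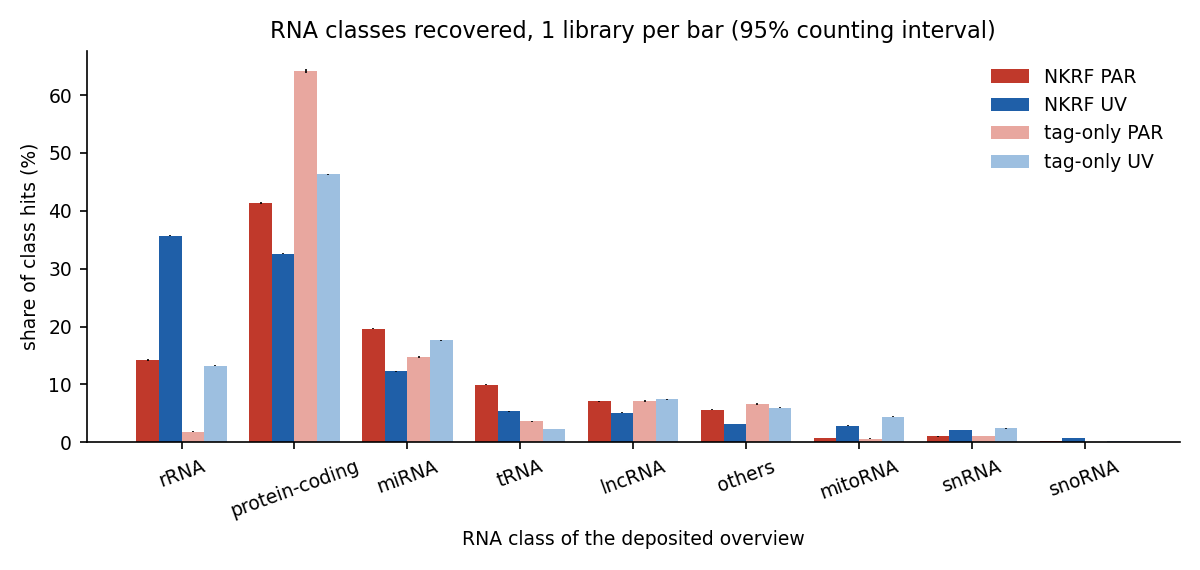
Share of class hits (percent) on the vertical axis for the 9 RNA classes, with 1 bar per library and 95% counting intervals. Ribosomal RNA is the largest class only in the NKRF UV library, at 35.7%, and protein-coding RNA is the largest in the other libraries.

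The second comparison asked how much of the rRNA recovered with NKRF lay in precursor-only sequence. The spacers, 48.5% of the nucleotides of the pre-rRNA, held 50.5% of the 47S coverage with PAR and 12.8% with UV, a 3.93-fold higher share with PAR (3.87 to 4.00). Per nucleotide, the spacers had a mean coverage of 303 normalised hits with PAR and 227 with UV, and the mature segments 280 and 1451. Spacer coverage per nucleotide was thus 1.08 times mature coverage with PAR and 0.156 times with UV. On the scale of all reads of the library the spacers were 1.34-fold higher with PAR (1.31 to 1.36) and the mature segments 5.18-fold lower (5.09 to 5.28). The gap between the treatments lay mostly on the mature side. A lower coverage can come from less RNA or from less crosslinking of it, and these cannot be told apart here. In the tag-only libraries the ratio of spacer to mature coverage was 0.138 with PAR and 0.0363 with UV, so it was also higher with PAR there, on a spacer coverage of 5.78 and 24.3 normalised hits.

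The spacers did not move alike. The 5′ ETS, the leader upstream of 18S that the early processome assembles on, held 37.2% of the 47S coverage with PAR and 6.00% with UV, 6.20-fold higher (6.05 to 6.34). ITS1, where the small and large subunit precursors are cut apart, held 6.15% and 1.4%, 4.41-fold higher (4.14 to 4.68). The 3′ ETS, the short trailer beyond 28S, held 0.295% and 0.0241%, 12.2-fold higher (8.59 to 17.4), on at least 90 and 86 reads. These 3 spacers were higher with PAR on the scale of all reads as well, 2.10-fold, 1.5-fold and 4.15-fold.

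ITS2, the spacer between 5.8S and 28S whose removal belongs to the large subunit, was the exception. It held 6.83% with PAR and 5.40% with UV, 1.26-fold higher (1.2 to 1.33) as a share of 47S coverage, but its mean coverage was 237 against 553 normalised hits, 2.33-fold lower with PAR (2.21 to 2.46) on the scale of all reads, and with the tag-only coverage subtracted its share was lower too, at a log2 ratio of -0.32. Among the spacers alone, ITS2 held 13.5% of the spacer coverage with PAR and 42.1% with UV, while the 5′ ETS held 73.7% and 46.8%. With UV these spacers thus held nearly equal totals, and with PAR the 5′ ETS held most. The UV total of the 5′ ETS included positions 401 to 500, with a mean of 2829 normalised hits, where the tag-only UV mean was 1186. The median nucleotide had 63 normalised hits with UV in the 5′ ETS and 178 in ITS2, so by this measure ITS2 was higher. With PAR the medians were 151 and 128. With the tag alone the ITS2 means were 3.47 with PAR and 13.9 with UV.

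Of the mature rRNAs, 18S of the small subunit differed most. It held 4.20% of the 47S coverage with PAR and 42.2% with UV, 10.0-fold lower (9.44 to 10.7), with mean coverage of 90.1 and 2664 normalised hits, 29.6-fold lower on the scale of all reads. This PAR mean was below the 123 of the tag-only library with the same treatment. The 5.8S, which pairs with 28S in the large subunit, held 0.638% and 3.16%, 4.96-fold lower (4.21 to 5.84). The 28S, by contrast, held 44.7% and 41.9%, a ratio of 1.07 (1.05 to 1.08), although its mean coverage of 354 with PAR was 2.76-fold lower than the 975 with UV, and its share was lower with PAR without the highest windows and with the tag-only coverage subtracted, at log2 ratios of -0.36 and -0.42. So the large share of mature rRNA with PAR was nearly all 28S. T content did not follow this order, since 18S and 5.8S had the most T, 21.5% and 22.9% of positions, against 14.9% in 28S and 15.1% in the 5′ ETS.

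**Figure D2:**
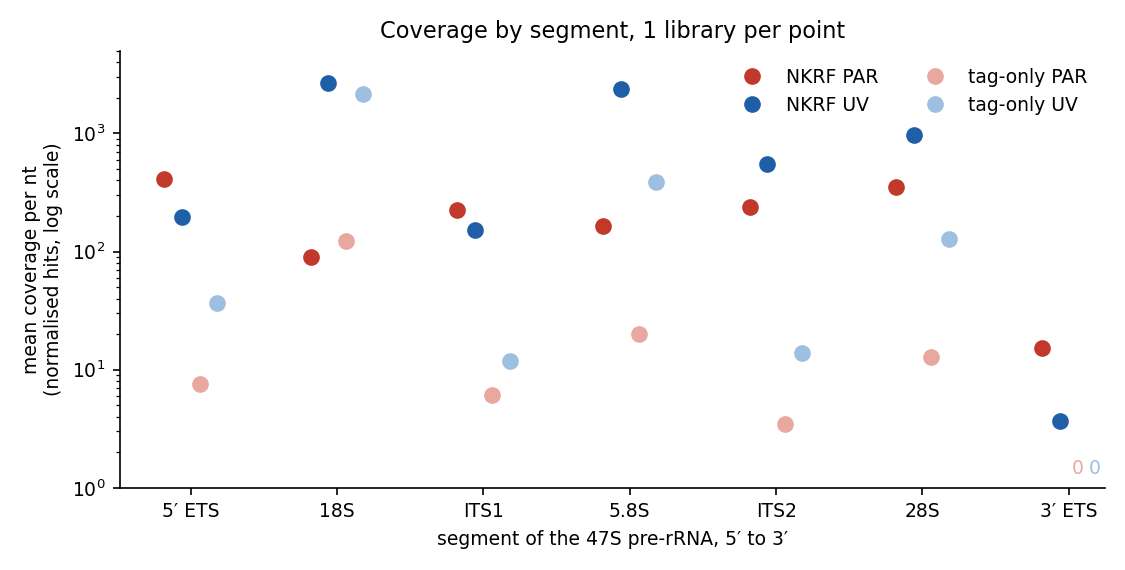
Mean coverage per nucleotide (normalised hits, log axis) for the 7 segments in 5′ to 3′ order, with 1 point per library. The NKRF PAR points lie above the NKRF UV points in the 5′ ETS, ITS1 and 3′ ETS and below them in the other segments, most of all in 18S at 90.1 against 2664.

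The third comparison used the ends of the mature rRNAs, where precursor-only and mature sequence lie side by side. Reads from the precursor can run across an end, and reads from mature rRNA stop at it. The coverage of the outermost spacer nucleotide is the most that crossing reads can account for. At the 5′ end of 18S the last 5′ ETS nucleotide had 142 normalised hits with PAR and 167 with UV, nearly the same, and the first 18S nucleotide had 363 and 9509. Reads that cross could thus account for 39.1% of the coverage on the 18S side with PAR (28.5 to 50.5) and for 1.76% with UV (1.51 to 2.03). The tag-only values were 4.17% with PAR (1.69 to 8.41) and 0.992% with UV, of 1488 and 5643 normalised hits on the 18S side. With PAR the tag-only coverage there was thus above the 363 with NKRF.

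At the 5′ end of 28S the pair of nucleotides read 151 and 151 with PAR, so no step was seen, and 841 and 2036 with UV, where at most 41.3% could cross. Measured 5 nt to either side of that end, the shares were 77.4% with PAR (58.8 to 90.4) and 5.76% with UV (4.83 to 6.80). At the 5′ end of 5.8S they were 80.9% and 55.5% at the end itself. The PAR coverage of 5.8S ran on for 5 nt into ITS1 and then dropped, from 204 normalised hits at 5 nt to 71 at 6 nt, where the UV coverage went from 445 to 170.

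The 3′ ends gave smaller counts. At the 3′ end of 5.8S, measured 5 nt to either side, crossing reads could account for 61.4% of a coverage of 44 with PAR (27.2 to 88.7, about 9.94 reads) and 4.04% of 1881 with UV (3.23 to 4.99). At the 3′ end of 28S the shares were 20.5% (2.65 to 56.2) and 0.133% (0.0183 to 0.458). At the 3′ end of 18S both libraries were alike, with 93.1% and 90.0% at the deposited border and 53.9% and 38.5% at 5 nt. Coverage ran on past that border in both, from 124 and 804 normalised hits at 5 nt into ITS1 to 35 and 108 at 10 nt. The tag-only shares at that border were 94.1% with PAR and 95.1% with UV, and at 5 nt 28.1% and 35.4%, so the run past this end was not particular to NKRF. This end apart, the share that could cross was lower with UV at the other 5 ends, at 1 nt and at 5 nt alike.

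**Figure D3:**
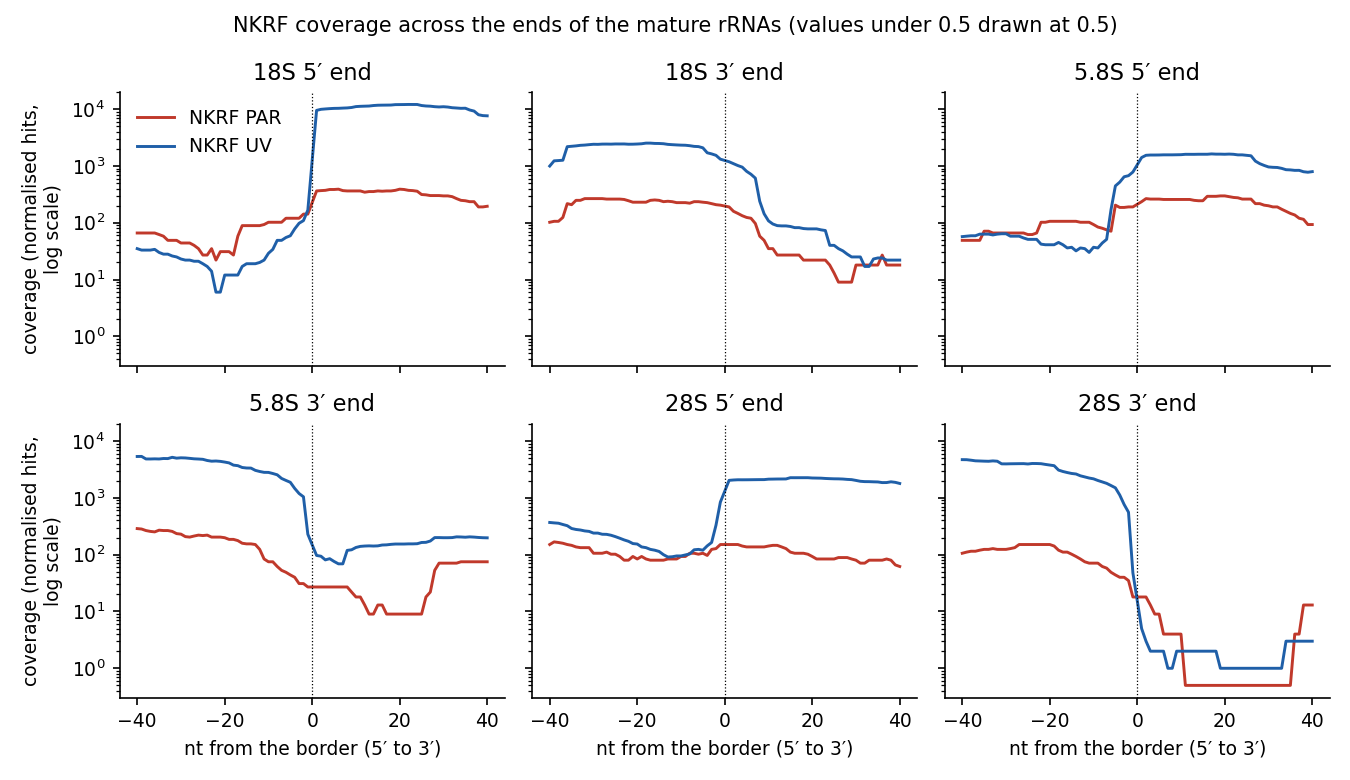
NKRF coverage (normalised hits, log axis) over 40 nt to either side of the 6 ends of the mature rRNAs, with PAR and UV as lines. At the 5′ end of 18S the UV line rises from 167 to 9509 within 1 nt while the PAR line rises from 142 to 363, and at the 5′ end of 28S the PAR line shows no step.

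The fourth comparison placed the difference along the transcript in windows of 100 nt. Windows entered where the mean of either NKRF library reached 20 normalised hits. The call was a 2-fold or larger difference in the share of 47S coverage, after adding 1 normalised hit to both means. Of 127 windows examined, 50 (39.4%) were higher with PAR and 46 (36.2%) lower, with a median log2 ratio of 0.18. In the 5′ ETS 29 of 31 were higher and 1 lower, in ITS1 9 of 10 higher, in ITS2 4 of 11 higher, and in 18S all 18 lower. In 28S 6 of 50 were higher and 22 lower, and of the 6 windows across a border 1 was higher and 5 lower. Scaled to all reads of the library instead, where the median log2 ratio was -1.37, 26 windows were higher and 72 lower. On that scale 28S had 1 window higher and 42 lower, ITS2 1 and 5, ITS1 4 and 0, and the 5′ ETS 18 and 2, while 18S kept its 18 lower. Just inside the call were positions 7601 to 7700 of ITS2 at 1.10 and 4301 to 4400 of 18S at -1.08, and just outside it 9701 to 9800 and 11701 to 11800 of 28S at 0.91 and -0.97.

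In the 5′ ETS the higher windows formed an unbroken run from position 701 to 3600, with a mean of 501 normalised hits with PAR and 143 with UV, a 10.3-fold higher share (9.95 to 10.6). The tag-only means there were 5.59 and 4.22. The windows of this segment ranked much alike in both treatments. The rank correlation of PAR with UV means was 0.88 over its 36 windows, which share the depth of their library, and 0.47 between the tag-only libraries, whose values there are thin. The largest ratio of all, a log2 ratio of 5.32, was at positions 3101 to 3200, with means of 2326 and 171, a 40.1-fold higher share (36.2 to 44.6). Next to it, positions 3201 to 3300 had means of 1084 and 153 and a log2 ratio of 4.37. Positions 3501 to 3600, just upstream of 18S, had 431 and 64.2 (4.29), and positions 2201 to 2300 had 645 and 111 (4.08).

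One 5′ ETS window went the other way. Positions 401 to 500 had means of 315 with PAR and 2829 with UV, a 3.05-fold lower share with PAR (2.68 to 3.48). The tag-only libraries were also high there, at 99.0 and 1186, against 5.59 and 4.22 over the run downstream. In the 3′ ETS the single examined window, 13201 to 13300, had 45.7 and 5.59 (log2 ratio 4.38) on at least 37.0 and 22.8 reads, and both tag-only libraries were at 0.

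In 18S the 18 windows ranged in log2 ratio from -5.17 to -1.08. The smallest was at positions 4101 to 4200 (445 to 544 of 18S), with means of 19.5 with PAR and 2173 with UV, a 37.8-fold lower share (23.6 to 65.0). The next smallest were at 4501 to 4600 (43.4 and 4110, log2 ratio -4.97), 3701 to 3800 (56.4 and 4064, -4.59), 5001 to 5100 (40.1 and 2791, -4.53) and 4801 to 4900 (71.6 and 4362, -4.35). In these 5 windows the tag-only PAR means, from 28.9 to 153, were no lower than the NKRF PAR means. Positions 4401 to 4500 held the highest 18S mean of both libraries, 224 and 5097. The 18S windows did not rank alike in the treatments. The PAR means had a rank correlation of 0.096 with those of the UV library over 18 windows, against 0.39 between the tag-only libraries.

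The windows over 5.8S, 6601 to 6700 and 6701 to 6800, had means of 145 and 140 with PAR and 925 and 2878 with UV (log2 ratios -1.11 and -2.80).

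ITS1 and ITS2 contrasted in their own peaks of coverage. In ITS1 positions 5801 to 5900 held the highest mean with both treatments, 870 with PAR and 540 with UV, and the largest ratio was at 6201 to 6300, with 279 and 61.5 (log2 ratio 3.72). The smallest ITS1 ratio was at 5601 to 5700, with 53.9 and 108 (0.57). In ITS2 the highest PAR mean was at 7101 to 7200, 628 against 1048, and the highest UV mean at 7201 to 7300, 1721 against 478 (log2 ratio -0.29). The largest ITS2 ratio was at 7401 to 7500, with 170 and 77.7 (2.68). The other 3 higher ITS2 windows lay at its 3′ end, positions 7601 to 7900, with 99.8 and 131, a 2.24-fold higher share (1.92 to 2.61).

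In 28S the PAR coverage was concentrated. The highest 3.12% of the 28S nucleotides held 50% of it, against 12.1% of them with UV, and the median nucleotide had 75.0 normalised hits with PAR and 451 with UV. The 6 windows higher with PAR, 11.8% of the 28S nucleotides, held 52.1% of its PAR coverage and 15.3% of its UV coverage. These were positions 8401 to 8800, 8901 to 9000 and 10101 to 10200, of which 1, 8401 to 8500, was also called higher on the scale of all reads. Over 8401 to 8800 the means were 1668 with PAR and 1185 with UV, a 4.15-fold higher share (3.99 to 4.31), led by 8401 to 8500 at 2678 and 895 (log2 ratio 3.14). At 10101 to 10200 the means were 2388 and 2531. Positions 11001 to 11100, the highest 28S window with UV, had 1544 and 4609, nearly the same share (log2 ratio -0.02). Tag-only means in the 6 windows averaged 3.87 with PAR and 66.1 with UV.

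The 22 lower windows of 28S averaged 64.0 normalised hits with PAR and 819 with UV. They included positions 8001 to 8300 near the 5′ end of 28S and, towards its 3′ end, 11901 to 12700 and 12801 to 13000. The smallest ratio was at 8201 to 8300, with 12.2 and 413 (log2 ratio -3.41). The higher and lower windows of 28S differed in base composition. G and C made up a median of 84.5% of the higher windows, 61.0% of the lower and 69.0% of the others, and A made up 4.50% and 18.2% of the nucleotides of the higher and lower windows.

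**Figure D4:**
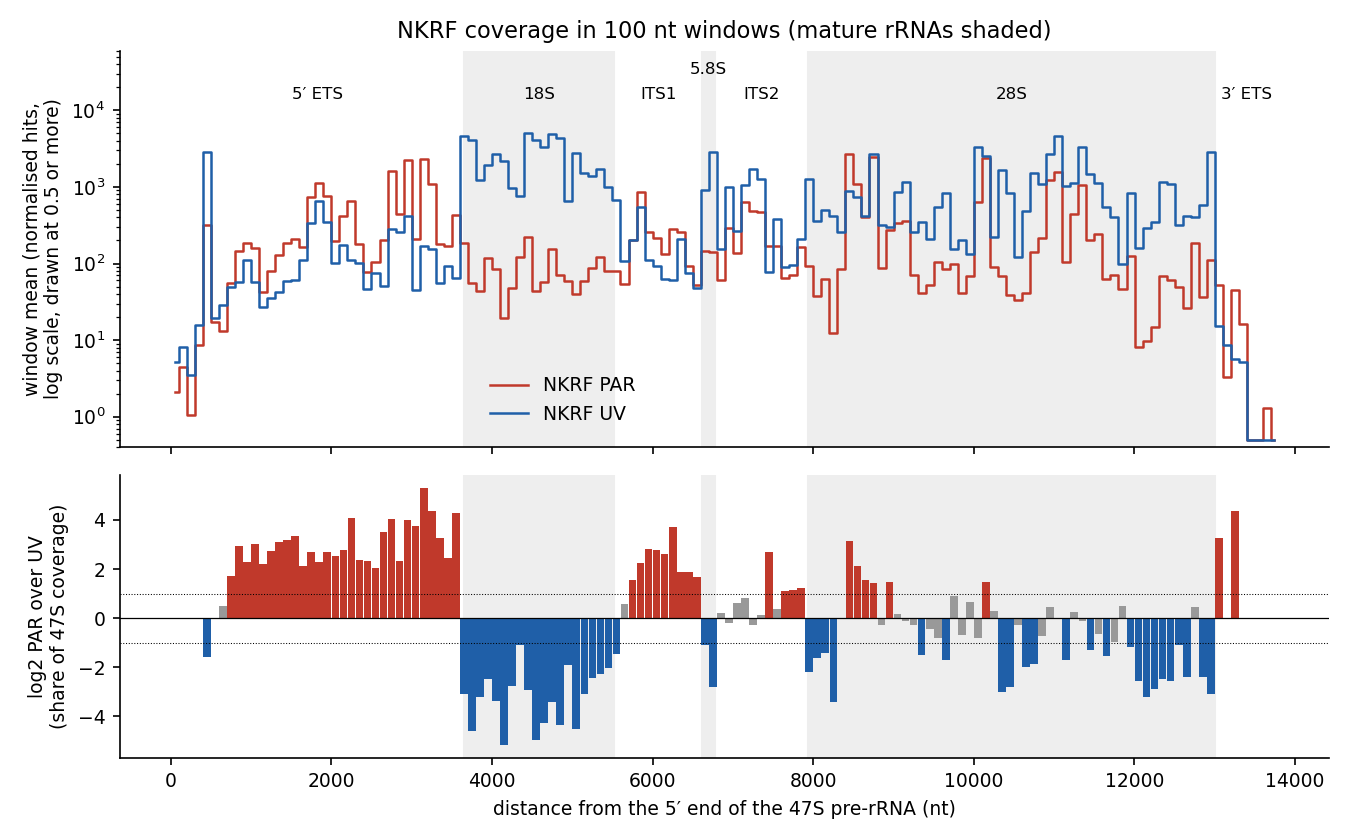
Upper panel, mean coverage (normalised hits, log axis) of NKRF PAR and NKRF UV in 100 nt windows against distance from the 5′ end of the pre-rRNA (nt). Lower panel, log2 ratio of the share of 47S coverage for the 127 windows examined, red at least 2-fold higher with PAR, blue at least 2-fold lower and grey within 2-fold, with bars above 0 over most of the 5′ ETS and ITS1 and below 0 over all of 18S.

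The fifth comparison asked which summits of coverage the treatments shared. A summit had to be the highest point within 50 nt to either side, at least 100 normalised hits high and to stand out by at least 50% of its height. There were 80 summits with PAR and 74 with UV, and 39 pairs lay within 25 nt of each other, 48.8% of the PAR and 52.7% of the UV summits. The share of all positions lying that near a summit of the other library was not measured. The shared counts, also those by segment, are thus descriptions and show no excess over it. The paired summits were a median of 6 nt apart, and 18 of the pairs were within 5 nt. By segment, the shared summits were 10 of 19 with PAR and 10 of 17 with UV in the 5′ ETS, 5 of 8 and 5 of 7 in ITS2, 3 of 7 and 3 of 5 in ITS1, 7 of 12 and 7 of 13 in 18S, and 12 of 31 and 12 of 30 in 28S. A share of summits depends on the limits set, and with the minimum height at each library's own mean it was 25% of 40 PAR and 23.3% of 43 UV summits.

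The 5 highest shared summits, ranked by the smaller of the heights over the library means, lay in 28S, ITS2 and the 5′ ETS. In 28S the summit at 11009 (position 3077 of 28S) was 6775 normalised hits high with PAR and 12397 with UV, 23.3 and 14.5 times the library means, with 9 and 512 in the tag-only libraries. The summit at 11303 was 2936 high with PAR and 6536 with UV, and its T at 11299, in the printed sequence, was substituted in 77.4% of PAR reads (73.9 to 80.6). The ITS2 summits at 6942 and 7191 were 753 and 952 high with PAR, and their UV partners at 6951 and 7185 were 2759 and 1856. The shared summit at 438 of the 5′ ETS was 943 with PAR and 7970 with UV, but stood at 348 and 3267 with the tag alone, so it was high in all 4 libraries.

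The highest PAR summit of the spacers, at 3133 of the 5′ ETS, had a partner at 3135 but at a very different height, 7784 normalised hits with PAR and 339 with UV, 26.7 and 0.395 times the library means. It was singled out after its values were seen. The only capital T in its printed sequence, at 3140, was substituted in 99.3% of 1703 PAR reads (98.8 to 99.6) and in 1.80% of the UV reads (0.697 to 3.76). The PAR coverage dropped from 75 at position 3153 to 0 at the next T, 3154, where the UV coverage was 170. The 0 was confined to that nucleotide. PAR coverage was present again beyond it, at 31 normalised hits at T 3165, where the UV coverage was 95.

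Of the 41 PAR summits without a UV partner, the highest were in 28S and the 5′ ETS. The summit at 10115 (2183 of 28S) was 8657 normalised hits high, the highest of the library, and the UV coverage there was 8539, on the flank of a UV summit of 9126 at 10079. In its printed sequence T 10121 was substituted in 76.9% of 1882 reads. The summits at 8488 and 8718 were 7501 and 6354 high with PAR against 1232 and 3249 with UV, and the nearest UV summits were 33 and 53 nt away. In the 5′ ETS the summits at 2739 and 3233 were 2980 and 2440 high against 215 and 200 with UV, with UV summits 58 and 40 nt away, and both tag-only libraries were at 0. All 5 had a UV summit within 58 nt, but the share of all positions with a UV summit that near was not measured. The UV coverage was above the UV mean of the whole pre-rRNA at the 3 in 28S. It was below that mean at the 2 in the 5′ ETS. There it was slightly above the 5′ ETS mean of 194 and further above the median 5′ ETS nucleotide, at 63.

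The highest UV summits without a PAR partner were in 18S and 28S. In 18S, the summits at 4811, 5076 and 4687 (1155, 1420 and 1031 of 18S) were 11383, 5847 and 5151 normalised hits high against 159, 35 and 31 with PAR. The tag-only UV library had 8138, 5679 and 5421 at the same positions, so these summits were high without NKRF too. In 28S, the summit at 10079 was 9126 high with UV and 1275 with PAR, and that at 8771 was 4410 and 602, with tag-only UV values of 414 and 120. The tag-only UV level was thus far below the NKRF UV level at the 28S summits.

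**Figure D5:**
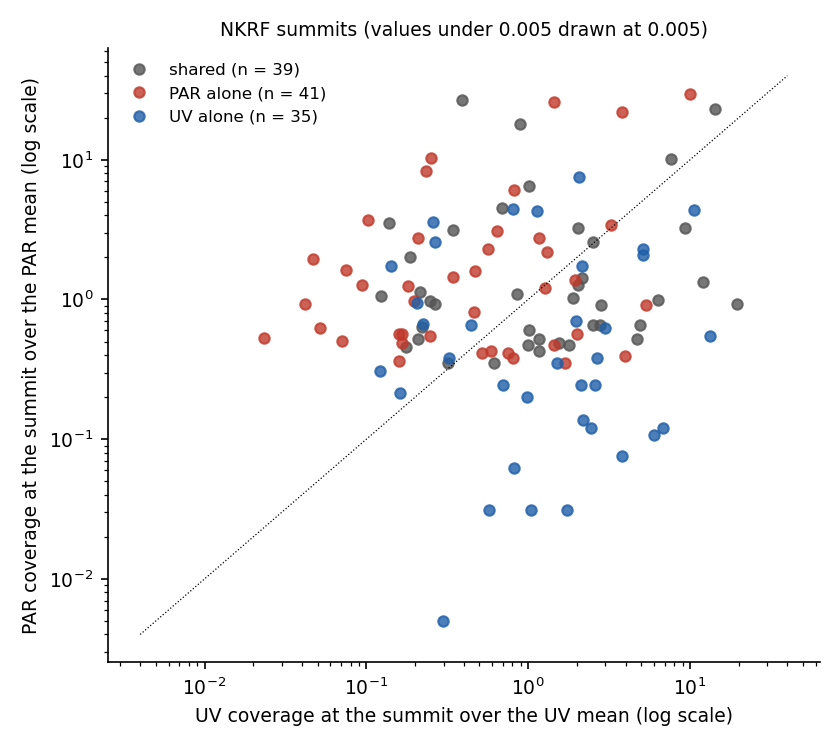
Coverage at each summit over the library's mean on the 47S pre-rRNA, UV on the horizontal and PAR on the vertical axis (both log), for 39 shared summits at their PAR position, 41 with PAR alone and 35 with UV alone. Shared summits lie on either side of the line of equal height, and several PAR-alone and UV-alone points stand at or above the mean of the other library.

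Base content around the summits was set beside these sets. Within 15 nt of a summit, T made up 19.9% of nucleotides at the PAR position of the shared summits. It made up 17.5% at those with PAR alone and 13.7% at those with UV alone, against 15.4% of the pre-rRNA. The summit itself was a T at 8 of the 41 summits with PAR alone and at 3 of the 35 with UV alone. Of the 39 shared summits, 13 were on a T at their PAR position and 5 at their UV position. In the mature segments the shares of G were 29.8% with PAR alone and 37.8% with UV alone, against 34.1% of positions. Every summit of both libraries had a T within 15 nt, as did 97.6% of all positions.

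Over the whole pre-rRNA the share of coverage lying on T was 16.6% with PAR and 17.1% with UV. The treatments differed at A and C, while G held 33.6% with PAR and 34.3% with UV. A held 5.08% of the coverage with PAR and 15.8% with UV, against 12% of positions, and C held 44.7% and 32.8%, against 35.8%. Within the spacers, where A is rare, it held 4.38% and 6.25%, and within 28S 4.31% and 10.6%, against 15.7% of 28S positions. In 18S, where coverage with PAR was low throughout, A held 20.1% and 23.8%, near its 22.4% of positions. The shares of A were also alike in 5.8S, at 15.7% and 15.4%, and in the 3′ ETS, at 2.39% with both treatments.

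Coverage fell with distance from T in both libraries, and farthest from T it was lower with PAR. At T itself the mean was 314 normalised hits with PAR and 952 with UV, 1.08 and 1.11 times the library means. At 11 to 15 nt from the nearest T it was 155 and 576, 0.531 and 0.672 times the means. At the 126 positions 21 to 35 nt from any T it was 7.13 and 298, 0.0245 and 0.348 times the means, and 60.3% of these positions had no PAR coverage against 6.35% with no UV coverage. The tag-only UV value there was 16.4 normalised hits, 0.0461 times its mean. These 126 positions were 0.914% of the pre-rRNA. Nearer to T the order differed between the regions. In the spacers PAR coverage held up better than UV coverage at 11 to 15 nt, at 0.440 and 0.373 times the spacer means, and at 16 to 20 nt, at 0.422 and 0.188 times. In the mature segments it was lower, at 0.624 against 0.716 times the mature means and 0.157 against 0.496 times.

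The number of T in a window did not order the windows by their ratio in the spacers. Spacer windows with 0 to 10 T had a median log2 ratio of 2.36 over 12 windows, those with 11 to 15 T 2.31 over 22, those with 16 to 20 T 2.69 over 16, and those with 21 or more 2.79 over 3. In 28S the order ran against T content, from a median of -0.10 over 14 windows with 0 to 10 T to -2.02 over 10 windows with 21 to 29 T. In 18S, windows with 21 or more T had a median of -3.21 over 11 windows. Counted over T positions alone, the spacer share was still higher with PAR, at a log2 ratio of 1.96, and the 18S share lower, at -3.07.

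The last comparison set the changed bases of the treatments side by side. With NKRF and PAR, 19.3% of T coverage was substituted, from 22.6% in ITS2, 21.6% in ITS1 and 20.7% in the 5′ ETS to 18.4% in 28S, 13.3% in 18S and 12.6% in 5.8S. Set over the fewest reads able to give the coverage, substitutions numbered 1.28 per read, from 0.962 in the 3′ ETS to 1.33 in the 5′ ETS. Were only reads with a changed T counted, the substituted shares would depend on the number of T per read. Their order by segment is thus a description and no measure of crosslinking. With NKRF and UV, 1.95% of T coverage was substituted and 0.382% deleted, shares that for the same reason cannot be set directly against the PAR share. T substituted in at least 50% of at least 10 PAR reads numbered 119 of 1467, 8.11%. They were 33 of 420 in the 5′ ETS (7.86%), 8 of 124 in ITS1 (6.45%), 12 of 122 in ITS2 (9.84%) and 2 of 24 in the 3′ ETS (8.33%), all near the overall share. In 28S they were 57 of 493 (11.6%), in 18S 7 of 250 (2.8%) and in 5.8S 0 of 34. The low counts in 18S and 5.8S came with the densest T, and the effect of T content on them was not tested. In the UV library 20 positions were deleted in at least 10% of at least 50 reads, of which 6 were T.

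Few sites could be compared in both sets. Of the 119 substituted T, 2 had a deleted position within 2 nt, both at the same nucleotide, 1757 and 2017 of the 5′ ETS. T 1757 was substituted in all of about 16 PAR reads and deleted in 82.3% of UV reads (76.8 to 86.9). T 2017 was substituted in 62.1% of 53.1 PAR reads and deleted in 15% of UV reads (9.24 to 22.6). Of the 20 deleted positions, 12 had at least 10 PAR reads, and 3 of those were T. The 2 substituted among these 3 compare with 8.11% of all T with that many PAR reads, a contrast resting on very few sites. Tag-only UV coverage was 0 at T 1757 and T 2017, so their deletion has no background to be set beside. Over all 119 sites together, 1.08% of the UV coverage was deleted and 4.00% substituted, against 0.362% and 1.90% at the other T with at least 10 PAR reads. The pooled share of deletion rested heavily on a few sites. T 1757 had 220 UV normalised hits, and T 11041 of 28S was deleted in 6.68% of 4283. Many of the 119 sites had no UV deletion, such as T 439 with 7965 normalised hits.

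T made up 30% of the deleted positions and 15.4% of the pre-rRNA. The highest shares of deletion outside T were at C. Position 3153 of the 5′ ETS, a C just downstream of the PAR summit at 3133, was deleted in 88.6% of 191 UV reads (83.3 to 92.8) and had 75 normalised hits with PAR. Position 7320 of ITS2, a C, was deleted in 81.0% of 2393 UV reads (79.3 to 82.5) and had 770 normalised hits with PAR. The tag-only UV library had 1 and 8 normalised hits at these positions, of which 100% and 50% were deleted. Deletion was thus seen there without NKRF too, on coverage too low to compare the shares. At 11 deleted positions it had at least 10 normalised hits, and 6 of these were deleted in at least 10% without NKRF too. T 12283 of 28S, for one, was deleted in 21.6% of NKRF UV reads and 19.1% of tag-only UV coverage, and C 11092 in 22.6% and 32.7%.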

How the data were processed

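The authors deposited, per the file headers, a table of 9 RNA classes and a coverage table of the 47S pre-rRNA for each library, mapped with Bowtie2 2.2.4 per the submitters' processing notes. From their values, the deposited class score is hits per 1000000 reads, rounded, and the deposited signal is coverage on the same scale. No source used here names the reference build, read filters or duplicate handling. The NKRF PAR file names no bases, which were read by position from the other files, where they were identical. The tag-only PAR header is shifted by 1 column and its substitutions were not used. The value of 1 read was taken from how often each low value occurs.

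Shares carry exact Clopper-Pearson 95% intervals and ratios intervals on the log scale. Ratios of regions rest on the fewest reads able to give the coverage. No test was run, with 1 library per group. Windows named are the highest and the extreme ratios of each segment and the 5 largest and 5 smallest of all, with those nearest the call. Summits named are the 5 highest of each set. The summit at 3133, the deletions named and the descriptions by base composition were chosen after values were seen. Members and lists were chosen with earlier results of these data known. Python 3.11.15, numpy 2.4.6 and scipy 1.17.1 were used, and the scripts were tested on simulated data.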

Additional observations from a re-analysis of the deposited data

Results flagged for a closer look

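For 2 RNA classes the NKRF libraries and the tag-only libraries moved in opposite directions between the treatments, a difference that was not tested, with 1 library per group. For lncRNA the log2 ratio of PAR over UV was 0.47 in the NKRF libraries and -0.059 in the tag-only libraries. For miRNA it was 0.68 and -0.25 in the same order.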

How the results depend on the processing

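With NKRF, values below compare PAR with UV. On the scale of all reads the log2 ratio of the spacers was 0.42 in place of 1.98, ITS2 turned to -1.22 and 28S to -1.46, and 26 windows were higher and 72 lower. With tag-only coverage subtracted the spacers came to 1.44, ITS2 to -0.32 and 28S to -0.42. Without the highest windows the spacers came to 1.87 and 28S to -0.36, and with the borders moved inward by 20 nt the spacers came to 1.94. The rRNA class, at -1.33, came to -1.12 without protein-coding RNA and to -1.67 centred on the median class, and protein-coding RNA turned to -0.072 without rRNA. Windows of 50 nt gave 102 higher and 92 lower, and windows of 200 nt 26 and 22. Measured 5 nt from the 5′ end of 18S, 0.572% could cross with UV. Shared summits fell to 35.0% of PAR and 37.8% of UV summits within 10 nt, to 31.7% of UV summits at a height of 200, and to 25% and 23.3% at the library mean. T held 15.5% of the PAR and 16.2% of the UV coverage in the spacers, and 17.7% of the PAR coverage in the mature segments. With a substitution minimum of 25%, 6 of 386 substituted T lay near a deletion, against 2 of 119 in the main setting. With a deletion minimum of 5%, which gave 70 deleted positions in place of 20, 4 of 119 did. Of 214 alternatives 120 stayed within the limits set for each result, 88 moved and 6 reversed. The moved ones include the counts for windows of 50 nt and 200 nt. The causes were not tested. The fewest reads lay in the 3′ ETS, at least 90 with PAR and 86 with UV. No paired analysis was possible because each group has 1 library.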
